A study of Mus musculus with 2 samples.

Results

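Cohesin and the proteins that load it onto chromatin and release it were examined as 10 genes: Smc1a, Smc3, Rad21, Stag1, Stag2, Nipbl, Mau2, Wapl, Pds5a and Pds5b. The genes were chosen by name as partners of CTCF in loop formation, and all 10 of 10 were found among the 32285 genes of the count matrix. The tissue was labelled as brain of an E18.5 C57BL/6 mouse embryo that was homozygous for a Ctcf mutation, with R567W introduced by CRISPR/Cas9 editing. SPARC-seq gave 1 RNA library and 1 chromatin accessibility (ATAC) library. The labels do not give the number of embryos behind them. Control embryos of this assay were not analysed here, so every comparison below lies within the mutant tissue and none measures an effect of the mutation. The 2 libraries share 1993 barcodes, each made of 2 segments of 8 bases. From the barcodes, and from no other source, they are taken to be grid spots, each of which may contain more than 1 cell. Spots with the same second segment are called a segment group. The 44 segment groups with at least 20 spots were compared, as portions of a library and not as replicates.

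Cohesin is a ring that holds sister chromatids together and, in interphase, extrudes DNA into loops. SMC1A and SMC3 form the ring with RAD21, the subunit that closes it, and either STAG1 or STAG2 binds RAD21 and contacts CTCF. NIPBL and MAU2 form the loader, WAPL releases cohesin from DNA, and PDS5A and PDS5B are regulatory subunits that take part in both release and the retention of cohesin. CTCF stops the moving ring, so that loops end at CTCF sites. In the developing brain, cohesin acts both in dividing progenitors and in postmitotic neurons.

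The promoter of Stag1 and those of Smc1a, Mau2 and Wapl are shown, Stag1 because it had the most accessible promoter of the 10 genes and the others because each shares its promoter region with a gene transcribed the other way. They are the 250 bases before the RefSeq start in GRCm38.p6, written 5′ to 3′ on the strand of the gene. Capitals mark matches, on either strand, to the GC box (GGGCGG), the CCAAT box (CCAAT) and the YY1 motif (ATGGCGG). In Stag1 the YY1 match overlaps the next GC box. The regions are chr9:100643198-100643447 (+ strand) for Stag1, chrX:152016178-152016427 (+ strand) for Smc1a, chr8:70042735-70042984 (- strand) for Mau2 and chr14:34673678-34673927 (+ strand) for Wapl.
Stag1: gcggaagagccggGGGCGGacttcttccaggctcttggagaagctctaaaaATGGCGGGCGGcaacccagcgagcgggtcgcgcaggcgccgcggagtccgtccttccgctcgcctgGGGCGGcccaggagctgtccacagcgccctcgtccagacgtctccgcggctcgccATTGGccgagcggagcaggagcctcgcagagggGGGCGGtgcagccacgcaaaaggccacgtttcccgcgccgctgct
Smc1a: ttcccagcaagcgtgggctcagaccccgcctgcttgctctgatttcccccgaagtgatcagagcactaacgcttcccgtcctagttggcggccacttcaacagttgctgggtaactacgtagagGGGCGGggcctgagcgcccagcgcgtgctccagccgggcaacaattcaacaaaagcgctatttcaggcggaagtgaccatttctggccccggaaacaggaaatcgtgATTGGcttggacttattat
Mau2: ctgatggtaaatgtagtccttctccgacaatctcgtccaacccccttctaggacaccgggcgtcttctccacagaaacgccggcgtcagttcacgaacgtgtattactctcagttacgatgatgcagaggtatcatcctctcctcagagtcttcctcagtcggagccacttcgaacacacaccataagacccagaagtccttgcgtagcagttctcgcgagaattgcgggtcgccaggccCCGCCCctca
Wapl: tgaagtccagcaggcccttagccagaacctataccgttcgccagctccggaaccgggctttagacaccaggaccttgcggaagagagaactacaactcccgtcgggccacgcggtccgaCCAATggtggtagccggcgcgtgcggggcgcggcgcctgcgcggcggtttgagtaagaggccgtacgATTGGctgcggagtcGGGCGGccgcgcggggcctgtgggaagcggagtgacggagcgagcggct
Such sequences were held by the promoter table for 7 of the 10 genes, namely these and Smc3, Pds5a and Pds5b, and not for Rad21, Stag2 and Nipbl. The GC box occurred in all 7, against 32.7% of the 32851 promoters of the table. The CCAAT box occurred in 4 (Smc1a, Stag1, Wapl and Pds5b) against 33.8%. The YY1 motif was found in Stag1 alone, against 2.21% of all promoters. The ETS motif CCGGAAG, the cAMP response element TGACGTCA, the TATA box TATAAA and the NRF1 motif GCATGCGC were in none of the 7, against 6.91%, 1.55%, 12.4% and 2.26% of all promoters. The promoters were GC-rich, from 54.8% in Mau2 to 80.4% in Pds5a, with a median of 67.6% against 52.4% over the table. These matches are descriptions of letters, not of bound factors.

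The RNA library held 8726497 UMIs (unique molecular identifiers, each standing for 1 captured RNA molecule), with a median of 4159 and a range of 907 to 15365 per spot. The ATAC library held a median of 21705 fragments per spot. The list of 12 neuron genes had 50354 UMIs and that of 10 radial glia genes 11099, but 12 skeletal muscle genes had 57974. RNA of skeletal muscle genes was thus abundant in the library labelled as brain. It was not alone, since 6 erythroid genes had 58850 UMIs and 6 fibroblast genes 12770. No gene of the neuron, radial glia or muscle lists was at 0. Intervals below are exact 95% intervals that cover counting error only, since neither library has a replicate.

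All 10 genes were transcribed in the mutant tissue, and together they were detected nearly everywhere. The 10 genes summed to 8015 UMIs, or 918 UMIs per 1000000 UMIs (CPM; interval 898–939). At least 1 of their UMIs was found in 1911 spots (95.9%), with a median of 4 UMIs per spot and a range of 0 to 17. Single genes were sparse, with at most 7 UMIs of a member in any spot. No cell type is expected to lack these genes, so no share of spots could serve as their background. Levels are therefore given over the library and over groups of spots. In such mixed spots, fewer cells of a type and less RNA per cell cannot be told apart.

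The ring subunits had similar counts. Gene spans are given in mm10 with GENCODE M21. Smc1a (ENSMUSG00000041133, chrX:152016428-152062694, + strand), the X-linked ATPase subunit, had 390 UMIs (44.7 CPM, interval 40.4–49.4), and its partner ATPase Smc3 (ENSMUSG00000024974, chr19:53600398-53645833, + strand) had 436 UMIs (49.96 CPM, interval 45.4–54.9). Rad21 (ENSMUSG00000022314, chr15:51962240-51991747, - strand), the subunit cut by separase at anaphase, had 389 UMIs (44.6 CPM, interval 40.3–49.2). Since longer genes can give more UMIs, levels between genes are compared per length. Per kb of gene body, Smc1a had 8.43 UMIs (7.61–9.31), Smc3 9.60 (8.72–10.5) and Rad21 13.2 (11.9–14.6). On this scale Rad21 lay above both SMC genes beyond counting error, while Smc1a and Smc3 had overlapping intervals. Per kb of exon, the order was the same, at 67.6 (61.1–74.7), 78.7 (71.5–86.4) and 91.9 (83.0–102) UMIs, and each interval overlapped with the next. Whether Rad21 lay above Smc3 beyond counting error thus rested on the length used.

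The alternative STAG subunits stood apart. Stag1 (ENSMUSG00000037286, chr9:100597798-100959375, + strand) had 1933 UMIs (222 CPM, interval 212–232), the most of the 10 genes, and was seen in 58.8% of spots. Stag2 (ENSMUSG00000025862, chrX:42149317-42277185, + strand) had 518 UMIs (59.4 CPM, interval 54.4–64.7) and was seen in 22.2%. After each spot was thinned to 2000 UMIs, which left out 161 shallower spots, these shares were 35.8% and 11.3%. Per kb of gene body the paralogues differed less, with 5.35 UMIs for Stag1 (5.11–5.59) and 4.05 for Stag2 (3.71–4.42). Per kb of exon the values were 164 (157–172) and 62.6 (57.3–68.2). Stag1 was higher on both scales beyond counting error, but the size of the difference rested on the length used.

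Of the loader genes, Nipbl (ENSMUSG00000022141, chr15:8290617-8444463, - strand) had 1456 UMIs (167 CPM, interval 158–176). Mau2 (ENSMUSG00000031858, chr8:70016123-70042734, - strand) had 622 (71.3 CPM, interval 65.8–77.1). Per kb of gene body, Mau2 was the highest of the 10 genes, at 23.4 UMIs (21.6–25.3) against 9.46 for Nipbl (8.98–9.96). Per kb of exon the order turned, with 155 for Nipbl (146.7–163) and 68.1 for Mau2 (62.9–73.7). Which loader gene was higher therefore could not be said from these counts. Whether reads in introns were counted is not given in the sources used here.

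Wapl (ENSMUSG00000041408, chr14:34673928-34747983, + strand), the releaser, had 392 UMIs (44.9 CPM, interval 40.6–49.6), which was 5.29 per kb of gene body (4.78–5.84) and 59.2 per kb of exon (53.5–65.3). Pds5a (ENSMUSG00000029202, chr5:65605721-65698273, - strand) had 742 UMIs (85.03 CPM, interval 79.0–91.4). Pds5b (ENSMUSG00000034021, chr5:150673739-150810690, + strand) had 1137 (130 CPM, interval 123–138). Per kb of gene body the PDS5 genes had overlapping intervals, at 8.02 (7.45–8.62) and 8.30 (7.83–8.80) UMIs. Per kb of exon, Pds5b was higher, at 116 (109–122) against 38.4 (35.7–41.2). Ctcf (ENSMUSG00000005698, chr8:105636568-105682922, + strand), the mutated gene, had 737 UMIs (84.5 CPM, interval 78.5–90.8) and was seen in 29.7% of spots. Its level per kb of gene body, 15.9 UMIs (14.8–17.1), lay above every member but Mau2. Per kb of exon it had 152 UMIs (141–163), with an interval that overlapped those of Stag1 and Nipbl.

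Over the 10 genes, UMIs were higher in longer genes, with a Spearman correlation of 0.758 between UMIs and kb of gene body, against 0.218 over the 7750 coding genes with at least 200 UMIs. These are correlations across genes, which are not independent replicates, and are given with no test.

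**Figure D1:**
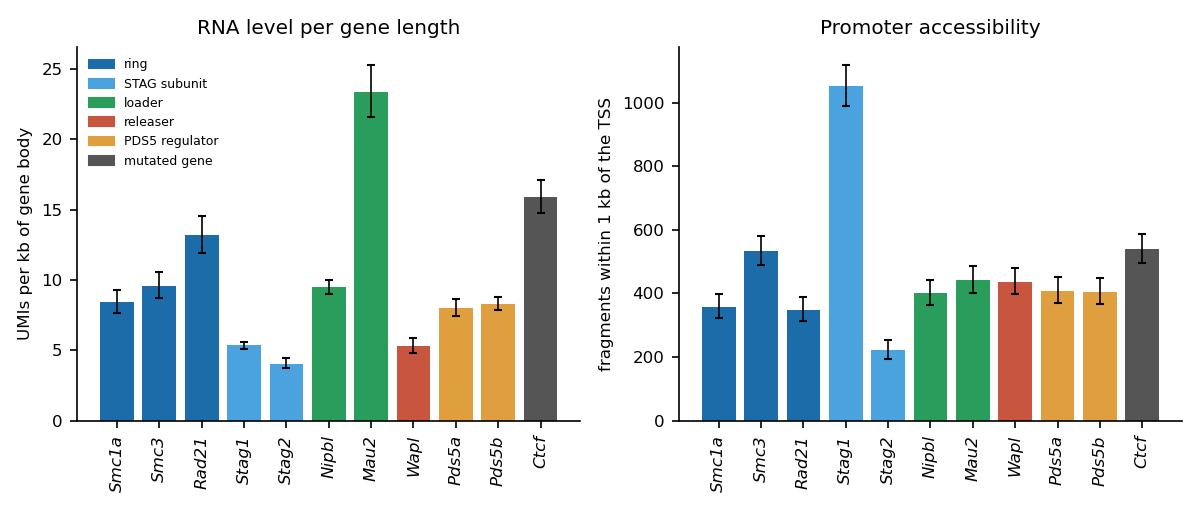
UMIs per kb of gene body (left) and fragments within 1 kb of the transcription start site (TSS, right) of the 10 genes and Ctcf in the mutant library, coloured by role; bars are totals over 1993 spots and error bars are exact 95% Poisson intervals. Mau2 was highest per kb of gene body (23.4) and Stag1 had the most promoter fragments (1054).

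Promoters of the 10 genes were open. Fragments within 1 kb each side of the TSS numbered 223 to 1054 per gene, with a median of 407.5 against 160 over 21702 coding genes. Those coding genes had a median of 83 UMIs against 570 for the 10 genes, so they are not a like background. Stag1 had 1054 fragments (991–1120), a level that 98.8% of coding genes did not exceed. Smc3 followed with 533 (489–580), close to Ctcf with 539 (494–586). The 7 genes Mau2 (443), Wapl (437), Pds5a (409), Pds5b (406), Nipbl (401), Smc1a (358) and Rad21 (349) formed a run in which each interval overlapped with the next. Stag2 had the fewest, 223 (195–254), at percentile 61.0 of coding genes. The Spearman correlation between UMIs and promoter fragments was 0.406 over the 10 genes and 0.038 over the 7750 coding genes, again across genes and with no test.

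Stag2, with the fewest promoter fragments, and Smc1a lie on chromosome X. Whether this place bears on their counts was not tested. Chromosome X had 0.494 times the fragments per Mb of the autosomes, and coding genes on X had a median of 56 promoter fragments against 168 on autosomes. Xist, the RNA that coats an inactive X, had 5857 UMIs, and the Y-linked Ddx3y, Kdm5d and Eif2s3y had 0 and Uty 1. Both X-linked members were above the X median.

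Within the promoters, insertions gathered at different places. Within 250 bp of the TSS lay 73.4% of the Rad21 insertions, 72.8% for Wapl and 70.8% for Pds5b, against 53.8% over coding genes. For Smc3 the share was 35.8% and for Stag2 27.5%. The fullest 50 bp bin of Smc3 was centred 275 bp upstream, with 195 insertions, and that of Stag2 225 bp upstream, with 43. Mau2, whose start lies 79 bp from that of the divergent gene Sugp1, had its fullest bin 275 bp upstream as well, with 143 insertions. Smc1a and Wapl also had divergent neighbours, Ribc1 at 133 bp (31 UMIs) and 5830448L01Rik at 165 bp (13 UMIs). Fragments there cannot be assigned to one of the pair. Sugp1 itself had 466 UMIs. The window of Ctcf held the starts of Agrp and Gm5914. The share of fragments shorter than the DNA of 1 nucleosome ran from 35.2% for Mau2 to 61.1% for Pds5b, against 49.96% at coding promoters.

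**Figure D2:**
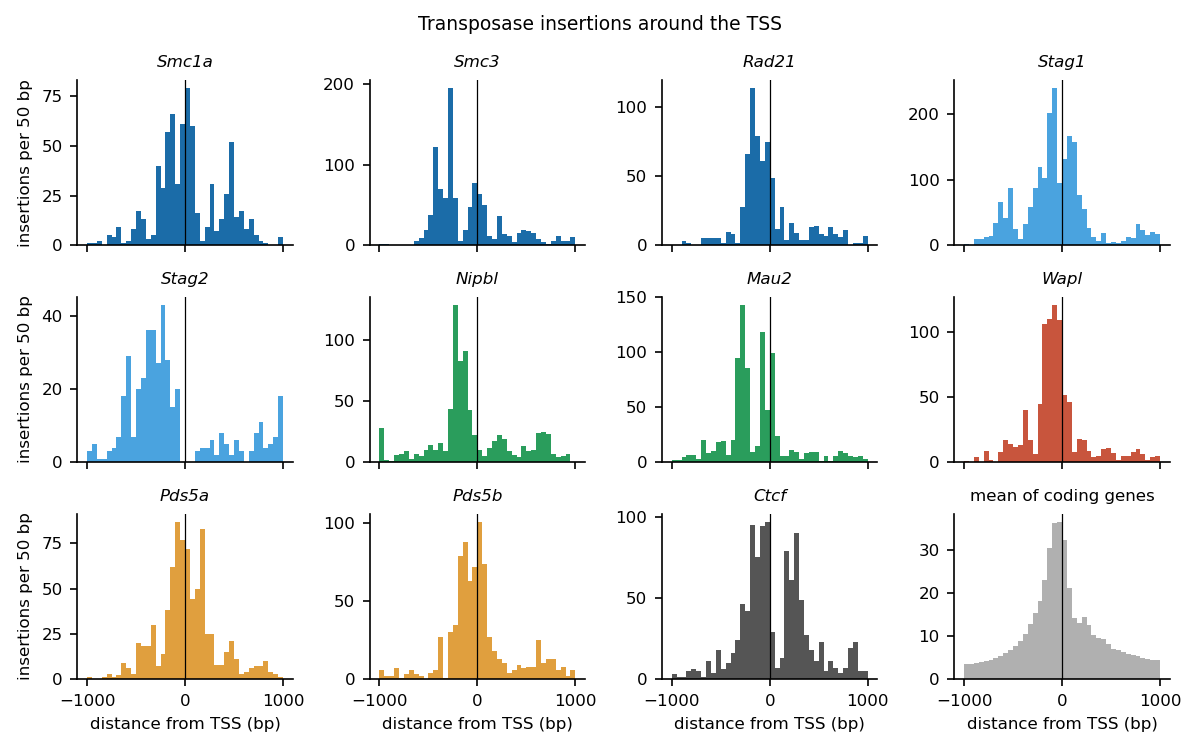
Transposase insertions per 50 bp within 1000 bp of the TSS, with negative distances upstream, for each gene, Ctcf and the mean of coding genes; the vertical axis differs between panels and the black line is the TSS. Within 250 bp of the annotated start lie 27.5% of the insertions of Stag2 and 35.8% of those of Smc3, against 73.4% for Rad21.

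Deposited peaks were then read at these loci. Of 91223 peaks, 34 lay in the 10 genes or within 10 kb of them, and each gene had a promoter peak. Smc1a, Mau2 and Wapl had no other peak, whereas Stag1 and Pds5b had 6 each. The promoter peak of Stag1 (mm10, chr9:100642926-100643775) held 1621 cut sites, at percentile 99.5 of all peaks, and the median over member promoter peaks was 658. Stag2 had a pair of promoter peaks with 316 and 273 cut sites, the latter over the start of Gm37564. A further peak with 223 cut sites (chrX:42151700-42152662), over another annotated start of Stag2, began 2288 bp downstream of the TSS and lay outside the 1 kb window, so its fragments are not in the promoter count. The largest peak outside a promoter of a member, with 1224 cut sites, lay 7.6 kb upstream of Pds5b (chr5:150665257-150666138) and covered the start of the neighbouring gene N4bp2l2.

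A match to the CTCF core consensus was found in 1 of the 34 peaks, the promoter peak of Stag1, and such matches were in 2.38% of all peaks. That peak held 2 matches, and 24 peaks in all (0.0263%) held 2 or more. The matches lie in an exon of Stag1, in sequence annotated as untranslated, 131 and 189 bp downstream of the TSS on the + strand. They are shown with 8 bases each side because CTCF, the mutated protein, binds motifs of this kind, and capitals mark the 13 bases of the match (GRCm38).
Stag1 match at chr9:100643565-100643593: cagcgcggCCAGCAGAGGGCGgtcgggac
Stag1 match at chr9:100643623-100643651: ggaaaatgCCACCAGATGGCGggttagga
Insertions within 50 bp numbered 283 around the first match and 177 around the second, in windows that overlap and so share insertions. No binding of CTCF was measured here, and a match is not a site.

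Spread between segment groups was measured for each of the 10 genes. For each gene, the index of dispersion compares the spread of counts over the 44 segment groups with counting error, so that 1 means no more spread than counting gives. Its median over the 3956 genes with at least 500 UMIs was 1.46. Smc1a had 1.98, ranging from 5.53 to 112 CPM with a median of 49.6. Wapl had 1.69, with a median of 45.0 CPM, and was at 0 in 1 segment group of 24 spots and 62704 UMIs, which allows up to 47.8 CPM. Rad21 had 1.42, from 18.6 to 94.8 CPM. The others lay lower, at 1.29 for Stag2, 1.28 for Stag1, 1.22 for Nipbl, 1.21 for Smc3 and 1.11 for Pds5a. Pds5b (0.870) and Mau2 (0.729) lay below 1. Counting alone also scatters the index around 1. The width of that scatter was not computed, so values near 1, on either side, are not read as differences between genes. Ctcf had 1.07. Thus 8 of the 10 genes lay below the median of all genes, but Smc1a, Smc3, Rad21 and Wapl had fewer than 500 UMIs. In a gene whose level varies, the index grows with its count. The myosin gene Myh3 had 24.4 (1755 UMIs) and the neuronal gene Stmn2 6.19 (5194 UMIs). At counts like those of Smc1a, the proliferation genes Mki67 (439 UMIs) and Top2a (341 UMIs) had 1.88 and 2.50. The order among the 10 genes was not kept when spots were grouped by the first segment, where Smc1a had 0.620, Wapl 1.05, Rad21 0.756 and Mau2 1.20.

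Summed, the 10 genes had 635 CPM in the lowest segment group, a median of 916 and 1050 in the highest, with an index of 1.06. Stag1 ran from 138 to 332 CPM, with a median of 224. Nipbl ran from 63.5 to 214 CPM, with a median of 173. The low ends of all 10 genes rested on 0 to 13 UMIs each, and the high ends of Smc1a and Rad21 on 7 and 10 UMIs in 24 and 25 spots. In promoter fragments the indices ran from 0.993 for Smc1a to 1.43 for Smc3 against a median of 1.23 over 2688 genes, and 6 of the 10 genes lay above that median, though only Smc3 and Stag1 had the 500 fragments of the genes compared. Smc1a thus had the highest index in RNA and the lowest in promoter fragments.

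**Figure D3:**
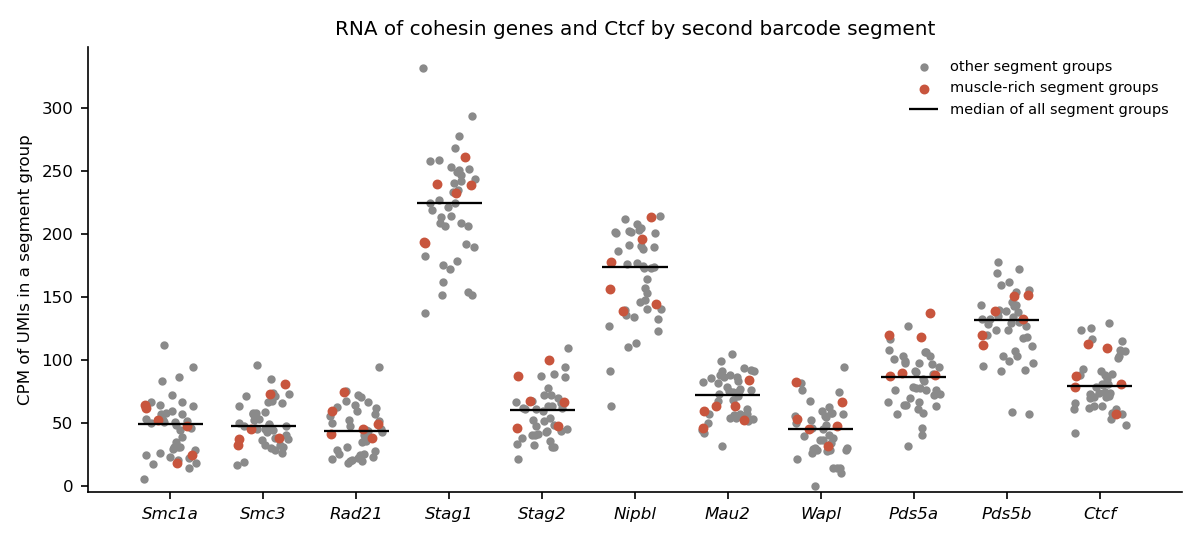
CPM of each gene in each of 44 segment groups of the mutant RNA library; red points are the 6 muscle-rich segment groups, grey points the other 38, horizontal lines the medians, and sideways position within a gene is random. Red and grey points overlap for each gene shown, for example 193 to 261 CPM against 138 to 332 CPM for Stag1. With sparse counts and 38 grey points, such overlap was likely in any case.

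Muscle-rich spots were used to ask whether cohesin RNA differed where muscle genes were high. The 6 segment groups with the highest CPM of the muscle list (280 spots) were set against the other 38 (1678 spots). Of the 10 genes, 0 were higher by at least 1.5-fold in UMIs, against 6.03% of the 7895 genes counted, and 0 were lower by that much, against 5.9%. At these shares, 10 genes with none past the limit do not stand apart from all genes. In promoter fragments 0 of 10 were higher, against 7.56% of 10664 genes, and 0 lower, against 8.7%. The range over segment groups overlapped between the groups for each of the 10 genes and Ctcf. Ranges were not computed for other genes, so this count has no background. Sparse counts in small segment groups widen the range of the 38, so overlap was likely in any case.

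Summed UMIs were 1.07 times as high in the muscle-rich segment groups (1.01–1.13), and the median ratio of the 10 genes was 1.03 against 0.954 over all genes. Pds5a had 104 against 81.2 CPM, a ratio of 1.28 (1.07–1.53). In single segment groups it ran from 87.2 to 138 CPM, with a median of 104, in the muscle-rich group and from 31.9 to 127, with a median of 78.0, in the rest. Stag2 had 70.4 against 56.2 CPM, a ratio of 1.25 whose interval began just above 1. Wapl had a ratio of 1.27 (0.984–1.62) and Rad21 1.22 (0.939–1.56). Smc1a, Smc3, Stag1, Nipbl and Pds5b had ratios of 1.01 to 1.04. Mau2 was the only one of the 10 below 1, at 0.855 (0.680–1.07). The interval lay above 1 for Pds5a and Stag2 of the 10, against 13.6% of all genes, and 21.5% of all genes had one below. Ctcf had 1.06 (0.869–1.28).

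In promoter fragments, the interval lay above 1 for Nipbl, at 1.35 (1.08–1.67), and Stag1, at 1.22 (1.07–1.40). Ctcf had 1.25 (1.03–1.51). The other 8 genes had intervals that held 1, from 0.838 for Mau2 to 1.29 for Stag2. Of all genes, 18.3% had an interval above 1 and 17.2% one below. Nipbl and Stag1 had UMI ratios of 1.01 and 1.02 in the same segment groups, and Pds5a, with the highest UMI ratio, had a promoter ratio of 1.23 (0.982–1.53).

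Other measures moved with the same segment groups. The muscle list was 3.06 times as high there, with 13272 to 19352 CPM per segment group against 3928 to 7056, the measure by which they were chosen. The fibroblast list was 2.93, the epithelial list 5.33 and the cycling list 1.57 times as high, and the neuron list 0.670 times. None of their genes was at 0. Spots there were deeper, with medians of 4907 against 4049 UMIs and 38006.5 against 20624 fragments. Their part in the ratios was not tested.

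**Figure D4:**
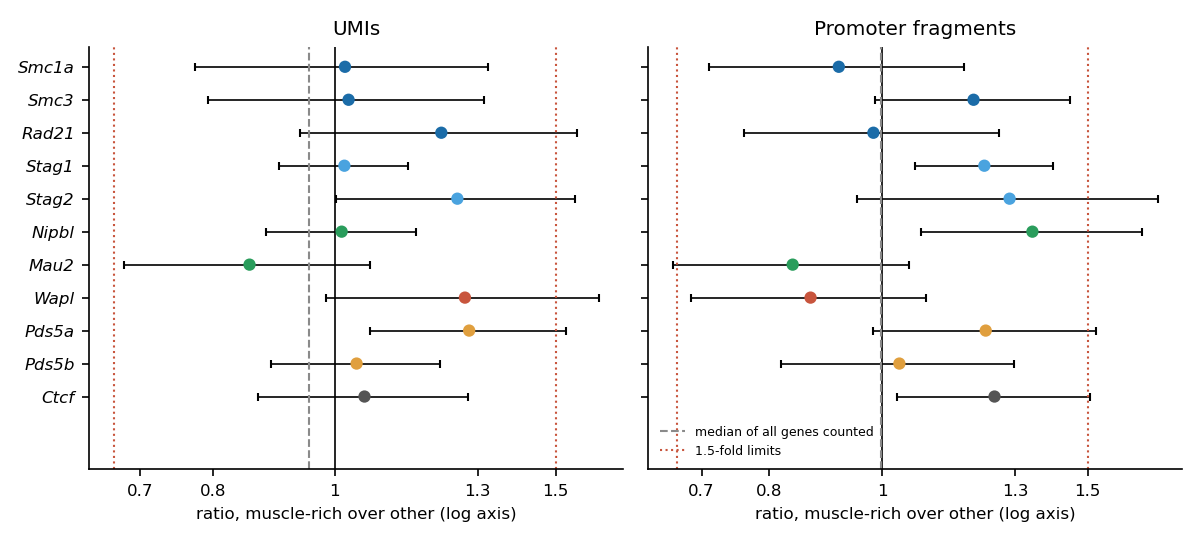
Ratio of CPM in the 6 muscle-rich segment groups over the other 38 for UMIs (left) and promoter fragments (right), on a log axis; points are coloured by role as in the plot of levels, bars are exact 95% intervals, the dashed line is the median of all genes counted and dotted lines mark 1.5-fold. No point passes 1.5-fold, and Mau2 lies below 1 in both panels (0.855 and 0.838).

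Since cohesin holds sister chromatids in dividing cells, the 6 segment groups with the highest CPM of 14 cycling genes (287 spots) were compared in the same way. Of the 10 genes, 0 were higher by 1.5-fold in UMIs, against 5.51% of all genes, and 0 lower, against 4.57%. In promoter fragments the counts were 0 against 5.65% and 0 against 6.85%. The summed ratio was 1.08 (1.02–1.14). Wapl had 58.2 against 42.5 CPM, a ratio of 1.37 (1.06–1.75), and Pds5a 1.27 (1.05–1.52). For the other 8 genes the interval held 1, from 0.857 for Mau2 to 1.14 for Stag2. Of all genes, 12.5% had an interval above 1 and 18.7% one below. In promoter fragments Nipbl had 1.32 (1.05–1.66), and Wapl, with the highest UMI ratio, had 0.782 with an interval that just held 1. Of all genes, 15.0% had a promoter interval above 1 and 13.9% one below.

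However, 5 of the 6 cycling-rich segment groups were also muscle-rich. The muscle list was 2.57, the fibroblast list 2.45 and the epithelial list 5.31 times as high in the cycling-rich segment groups, and the neuron list 0.718 times. Spots there were deeper too, with medians of 4685 against 4085 UMIs and 33084 against 20787 fragments. The part of these measures in the ratios was not tested. With the muscle-rich segment groups left out, an alternative chosen after the data were seen, the 6 remaining segment groups highest in the cycling list, 1 of them among the first 6, had 1.52 times that list (1.33–1.73), the measure by which they were chosen. Their summed ratio for the 10 genes was 0.952 (0.887–1.02), Wapl had 1.18 (0.854–1.60), Pds5a 0.946 (0.738–1.20) and Rad21 0.731 (0.496–1.05).

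The balance between paralogues and between loader and releaser was also followed. A ratio of UMIs between genes depends on their lengths, so only its change between groups is read. Stag2 over Stag1 was 0.268 (0.243–0.295) over all spots, 0.313 (0.249–0.390) in muscle-rich segment groups and 0.254 (0.227–0.284) in the rest. Pds5b over Pds5a was 1.53 (1.40–1.68), with 1.28 (1.04–1.59) and 1.58 (1.42–1.76) in those groups. Nipbl over Mau2 was 2.34 (2.13–2.58), with 2.71 (2.13–3.46) and 2.28 (2.06–2.54). Nipbl over Wapl was 3.71 (3.32–4.16), with 3.10 (2.41–4.02) and 3.88 (3.42–4.42). The odds ratios of muscle-rich over other segment groups were 1.23 (0.955–1.58), 0.813 (0.641–1.03), 1.18 (0.911–1.55) and 0.798 (0.600–1.07). All 4 intervals held 1, and so did those of the 4 cycling-rich comparisons, of which Nipbl over Wapl had 0.753 (0.565–1.01). By single segment group, the Stag2 share of the STAG UMIs ran from 10.1% to 38.5% with a median of 20.9%, and in 42 of 44 segment groups the interval held the pooled share. For Nipbl over Wapl, the same was true of 39 of 44 segment groups.

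Next to Ctcf, the 10 genes showed weak correlations over the 44 segment groups. These segment groups share a library and differ in depth and tissue, and the values are descriptions with no test. Ctcf had an index of dispersion of 1.07, so its spread was mostly counting error. Values near 0 therefore cannot show whether the genes vary together. Pearson correlations of CPM with Ctcf ran from -0.21 for Pds5a to 0.23 for Nipbl. The summed genes had 0.15 by Pearson and 0.029 by Spearman correlation, and in promoter fragments 0.18 and 0.20. Over the 37 segment groups with at least 40 spots, the summed Pearson value was 0.0030 in UMIs and 0.28 in promoter fragments. When spots were grouped by the first segment, the Pearson value in UMIs was -0.22 for Nipbl and -0.12 for the summed genes. Among the genes whose CPM over segment groups was most like that of the summed 10, of 1825 with at least 1000 UMIs, were Tomm7 (0.50), Rps28 (0.47), Sltm (0.44) and Rps24 (0.41). Over the 49 first-segment groups these 4 genes had correlations of -0.037 to 0.14.

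The wider cohesin and SMC machinery was read from 6 lists of 32 genes, all with at least 1 UMI, from 2 to 983. Of these, 11 had the 200 UMIs needed for the comparisons, and 0 of 11 passed 1.5-fold in muscle-rich or cycling-rich segment groups, against the shares of all genes given above. Hdac8, the SMC3 deacetylase, had 780 UMIs, and the acetyltransferase Esco1 had 213. Its S-phase counterpart Esco2 had 27 and Cdca5, which encodes sororin and protects cohesion after replication, had 24. The 5 genes of cleavage and protection summed to 277 UMIs, led by Pttg1, which encodes securin, with 133.

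Meiotic cohesin genes had few UMIs. Smc1b had 21 UMIs, Rad21l 6, Rec8 98 and Stag3 126. Stag3 nevertheless had 789 promoter fragments, at percentile 96.6 of coding genes, above every mitotic member but Stag1. Whether another gene starts in the same window was looked up for the 10 genes and Ctcf only, so these fragments may not all belong to Stag3. Per kb of exon, Stag3 had 22.0 UMIs against 62.6 for Stag2, but per kb of gene body 3.92 against 4.05. Rec8 had 13.3 UMIs per kb of gene body, near Rad21 with 13.2, and 33.4 per kb of exon, below all 10 genes.

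The 8 condensin genes, which compact mitotic chromosomes, summed to 1722 UMIs and were 1.20 times as high in muscle-rich segment groups (1.06–1.35), where the cycling list was 1.57 times as high. Of the 8, Smc4 alone had an interval above 1, at 1.54 (1.05–2.20), against 13.6% of the 7895 genes with at least 200 UMIs. Only Ncapd3 and Ncaph2 of the 8 reached that minimum, so the share is not a like background. Its 169 UMIs were below the minimum of 200, so it is not among the 11. In cycling-rich segment groups Smc4 had 1.58 (1.07–2.27) and Ncapg2, with 171 UMIs, 1.71 (1.18–2.44). There, 12.5% of the genes with at least 200 UMIs had an interval above 1. Ncaph2 led with 688 UMIs, and Ncapd3, with 371, had a muscle-rich ratio of 0.860 (0.635–1.15) and a cycling-rich ratio of 0.750 (0.538–1.02). The 6 genes of the Smc5/6 complex, which acts in DNA repair, summed to 2329 UMIs, led by Nsmce2 with 983. Their ratio was 1.12 (1.003–1.24) in muscle-rich and 1.07 (0.954–1.19) in cycling-rich segment groups. Among other factors of loop anchors, the germline paralogue Ctcfl had 2 UMIs. Maz had 662 UMIs and 1024 promoter fragments, Ldb1 348 UMIs, Yy1 308 and Zfp143 102 UMIs but 1348 promoter fragments. Their sum was 0.858 times as high in muscle-rich segment groups (0.739–0.992), with 0.789 (0.628–0.982) for Maz, which holds the most UMIs of the list, and intervals that held 1 for Yy1 and Ldb1.

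**Figure D5:**
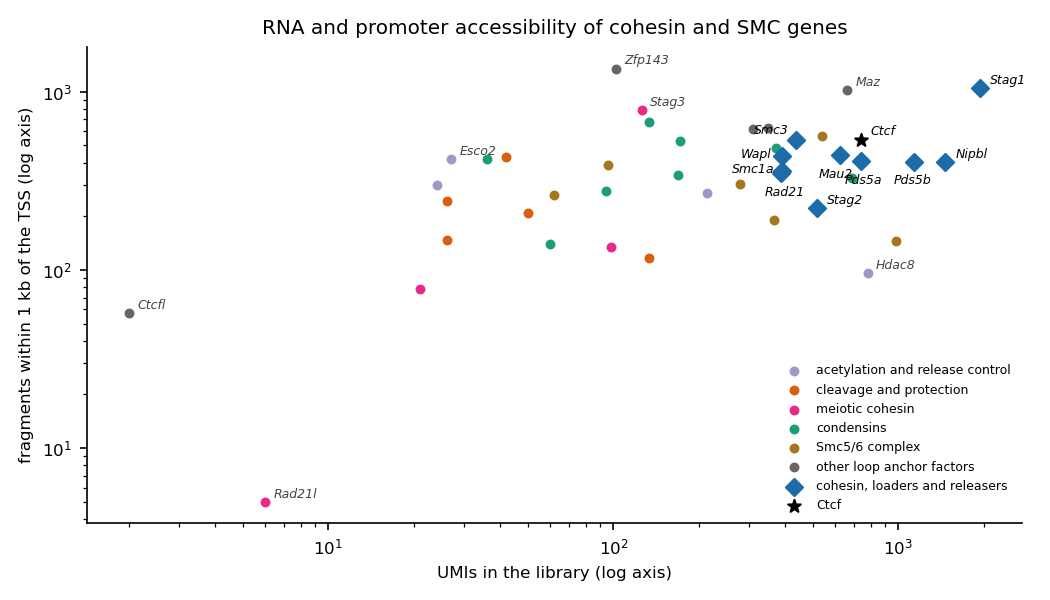
UMIs in the RNA library against fragments within 1 kb of the TSS, both on log axes, for the 10 genes (diamonds), Ctcf (star) and the 32 genes of 6 related lists (dots); each symbol is a gene. The 10 genes lie between 389 and 1933 UMIs, while Stag3 and Zfp143 combine many fragments near the TSS (789 and 1348) with few UMIs (126 and 102). Neighbouring starts were not looked up for the 32 genes.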

How the data were processed

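The RNA and ATAC libraries came from tissue labelled as E18.5 brain with a Ctcf homozygous mutation. Per the file headers, the authors used cellranger-arc 2.0.1 with an mm10 reference. The submitters' processing notes also name Seurat 4.0. The deposited matrix held raw counts, namely UMI counts of genes and cut-site counts of peaks, with no normalization. The deposited fragment file gave fragments with duplicates collapsed. How barcodes were chosen for the matrix is not given in the sources used here.

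UMIs were divided by the total of the spots concerned (CPM), promoter fragments by all promoter fragments. The TSS was the most upstream start of the principal transcripts in GENCODE M21 (GRCm38), found for 32235 genes. Exact Poisson, Clopper-Pearson and conditional binomial 95% intervals were computed (Python 3.11.15, scipy 1.17.1). The group comparisons used genes with at least 200 counts and a limit of 1.5-fold, with no test, since each assay had 1 library. RefSeq promoters were cut at the TSS. The comparison between sets of segment groups was tested on simulated counts, and the index of dispersion was not. The simulated counts held counting error only, so they do not test the intervals where segment groups differ by more than that. Named were the 10 genes, Ctcf, the related lists and the 5 genes most correlated with the summed 10, of which 1 is not reported here. The members and lists were chosen with earlier results of these data known. Alternatives covered spots, windows, barcode segments, limits and totals.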

Additional observations from a re-analysis of the deposited data

Results flagged for a closer look

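Barcodes outside the count matrix carried signal at the promoters of the 10 genes. In the 507 barcodes of the fragment file that the matrix lacks, 320 fragments fell within 1 kb of their starts, from 19 for Nipbl to 87 for Stag1, where a count of 0 would allow up to 3. Per 1000000 promoter fragments this was 628 (interval 561–701), against 747 inside the matrix. The rule that left these barcodes out of the matrix is not given in the sources used here.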

How the results depend on the processing

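Of 188 alternative values, 161 stayed within the limits set for them (counting intervals for levels and ratios, 10% for the index of dispersion) and 27 moved. UMI levels (36 values) and the 4 ratios between genes (4 values) moved under none of their alternatives. They could hardly have moved, because these alternatives changed few counts. The gene and mitochondrial limits kept 1992 of 1993 spots, and spots with at least 2000 UMIs held 1881 of the 1933 Stag1 UMIs. The summed promoter level, 747 per 1000000 promoter fragments, was 829 with a window of 500 bp each side and 645 with 2 kb, and 16 values of single genes moved with the window too, among them Stag2, which was 36.1 in the main window and 45.1 with 2 kb. The median index of dispersion of the 10 genes, 1.25 over segment groups, was 1.003 over first-segment groups, where the median of all genes was 1.08. The correlation of the summed genes with Ctcf, 0.15 over segment groups, was -0.12 over first-segment groups. Without the muscle-rich segment groups, the summed ratio of cycling-rich segment groups went from 1.08 to 0.952 and those of Pds5a from 1.27 to 0.946, Rad21 from 1.07 to 0.731, Stag1 from 1.06 to 0.902 and Pds5b from 1.08 to 0.874, all across 1. By first segment, the index of Smc1a was 0.620 in place of 1.98. With 4 cycling-rich segment groups, Smc1a had a ratio of 1.33 and Smc3 0.797. The cause of these moves was not tested. No paired analysis was possible because each assay had 1 library and no second group.

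Without a replicate, no interval holds the variation between embryos. At a median of 4 UMIs of the 10 genes per spot, single spots were too sparse to compare, and ratios of these genes between segment groups rest on 69 to 342 UMIs of a gene on the muscle-rich side.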
